A study of Mus musculus with 88 samples.

Results

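Dendritic cells exposed to lipopolysaccharide (LPS, a component of the outer wall of Gram-negative bacteria) for 4, 5 or 6 h were compared with mock-stimulated cells of the same times, 6 mass spectrometry runs against 6. The samples were chosen by their labels, as the M and H channels of 2 replicate runs at each of the 3 times under each treatment, which makes 24 of the 88 samples of the series. The cells were dendritic cells grown with GM-CSF from bone marrow of female C57BL/6J mice, and the sources used here do not state the age of the mice. LPS was given at 100 ng per ml, and mock cells had no stimulus. Apart from LPS both arms were handled alike: they carried the medium label (M) in their amino acids beforehand, were pooled, and changed to the heavy label (H) at 0 h. The labels do not say that replicates 1 and 2 were separate cultures, so the p-values measure only the spread between these runs, which may be technical.

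In this pulsed labelling the H form of a protein was made after 0 h, the M form was made before it, and the L form came from an unlabelled mix that served every run as the reference. H/L is therefore called new protein, M/L pre-existing protein and their sum total protein, each divided by a factor of its run. A scaled H/L of 1 means about as much heavy as light protein in a run of median loading. Since each protein is set against its own level in the light mix, values compare samples for 1 protein and not 1 protein with another. Before any heavy label was supplied the median protein already showed an H share of 13.7% ± 0.759 (SD, n = 2 runs at 0 h), so low H/L values lie on a floor and fold changes of weakly made proteins are understated.

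LPS is sensed by Toll-like receptor 4, whose adaptors signal along a MyD88 branch to NF-kB and a TRIF branch to the interferon regulatory factors. NF-kB targets such as the interleukin-1 cytokines are induced directly. Interferon beta made through the other branch is secreted, binds its receptor on the same and neighbouring cells and switches on antiviral genes through a transcription factor complex that binds the interferon-stimulated response element. That relay is known to place the antiviral proteins behind the direct targets, and the hours from 4 to 6 were examined for the onset of this second wave in newly made protein.

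Promoters were taken from 4 named interferon-responsive proteins with the highest change among those that hold an element match. Ifi47 (log2 change 2.11) and Slfn2 (1.80) had no match and were passed over, while Trim30a (1.72) was kept. The promoters of the 4 and of the activation markers Il1b and Irg1 are shown. They are RefSeq sequences of build GRCm38.p6, the 250 bases before the annotated start, read 5′ to 3′ along the gene. Capitals mark matches, on either strand, to the response element core (GAAA, any 2 bases, GAAA) or to an NF-kB-like pattern (GGGA, any 2 bases, TTCC).
Mndal: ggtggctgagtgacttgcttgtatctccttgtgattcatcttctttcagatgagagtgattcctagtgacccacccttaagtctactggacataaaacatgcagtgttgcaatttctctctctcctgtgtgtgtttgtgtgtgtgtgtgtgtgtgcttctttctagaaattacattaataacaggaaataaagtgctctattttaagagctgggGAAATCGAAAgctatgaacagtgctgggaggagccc
AI607873: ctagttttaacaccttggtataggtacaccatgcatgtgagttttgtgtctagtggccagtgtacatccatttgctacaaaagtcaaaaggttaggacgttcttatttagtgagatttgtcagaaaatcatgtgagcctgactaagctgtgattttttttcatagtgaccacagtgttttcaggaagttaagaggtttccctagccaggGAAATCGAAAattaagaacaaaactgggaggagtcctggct
Irgm1: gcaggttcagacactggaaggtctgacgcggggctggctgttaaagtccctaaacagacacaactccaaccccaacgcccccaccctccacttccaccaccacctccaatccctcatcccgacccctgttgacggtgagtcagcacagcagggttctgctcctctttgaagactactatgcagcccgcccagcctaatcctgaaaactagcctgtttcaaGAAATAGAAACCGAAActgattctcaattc
Trim30a: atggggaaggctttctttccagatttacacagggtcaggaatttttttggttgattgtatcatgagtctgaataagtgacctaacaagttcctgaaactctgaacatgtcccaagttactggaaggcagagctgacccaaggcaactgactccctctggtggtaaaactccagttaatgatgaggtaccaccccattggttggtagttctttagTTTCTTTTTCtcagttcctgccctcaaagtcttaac
Il1b: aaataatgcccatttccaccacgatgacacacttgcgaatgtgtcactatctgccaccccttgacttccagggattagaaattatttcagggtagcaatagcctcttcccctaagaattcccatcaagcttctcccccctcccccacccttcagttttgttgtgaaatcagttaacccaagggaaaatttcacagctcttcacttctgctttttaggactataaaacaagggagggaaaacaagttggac
Irg1: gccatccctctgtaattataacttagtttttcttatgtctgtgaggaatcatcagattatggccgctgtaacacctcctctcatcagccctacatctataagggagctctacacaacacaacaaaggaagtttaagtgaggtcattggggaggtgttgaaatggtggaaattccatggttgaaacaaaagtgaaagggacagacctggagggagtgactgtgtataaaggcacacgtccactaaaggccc
They lie at chr1:173880188-173880437, minus strand (Mndal, the one of its 2 listed starts with a match), chr1:173741810-173742059, minus strand (AI607873, now Ifi207), chr11:48871421-48871670, minus strand (Irgm1), chr7:104465194-104465443, minus strand (Trim30a), chr2:129371140-129371389, minus strand (Il1b) and chr14:103046762-103047011, plus strand (Irg1, now Acod1). Trim30a also has 2 listed starts, of which 1 is shown. All windows are upstream of the first exon. The matches begin 36 bases before the start in Mndal, 41 in AI607873, 36 in Trim30a, and 30 and 24 in Irgm1, where 2 matches overlap. No capitals stand in the Il1b and Irg1 windows, which says only that these letters are not in them. Of 27025 genes with a listed promoter 3.46% held the response element core and 1.36% the NF-kB-like pattern in the same window. Among the interferon-responsive proteins that rose over 4 to 6 h, 10 of 24 with a listed promoter held the core (41.7%), as did 11 of 35 (31.4%) of those on the same lists that were tested and did not pass. Of the inflammatory proteins that rose, 0 of 22 held the core, and of those tested and not passing 2 of 18 (11.1%). The NF-kB-like pattern was in 1 of 22 risen inflammatory proteins (4.55%) and in 3 of 24 risen interferon-responsive ones (12.5%). A match is a description of letters and not a binding site.

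The 12 runs each gave an H/L ratio for 3585 to 4082 proteins from 75066 to 90912 H/L peptide pairs, with a median of 8 or 9 pairs per protein. Across proteins, log2 H/L of the 2 replicates of a group correlated at 0.52 to 0.64. Median H share was 16.4% ± 1.02 (SD, n = 6) after LPS and 15.9% ± 0.953 (n = 6) in mock, higher after LPS in 6 of 6 matched pairs by 0.462 percentage points ± 0.288 (two-sided exact permutation test over pairs, p = 0.0312, the smallest that 6 pairs allow). Over the proteins measured in all 12 runs the difference was 0.279 points (p = 0.0938, same exact test). Of 9 dendritic cell identity markers 7 were in the table, among them Itgax (CD11c) and Irf4, and Flt3 and Zbtb46 were not; together they took 0.154% to 0.178% of the summed M and H signal after LPS and 0.138% to 0.174% in mock. All 17 granulocyte markers had signal, 1.38% to 2.36% against 1.62% to 2.3%. For macrophage markers it was 7 of 11, with Mertk, Cd163, Vsig4 and Timd4 not in the table, and 0.274% to 0.434% against 0.37% to 0.463%. Lymphocyte markers were near 0, with 1 of 12 in the table (Lck) and no CD3 chains, at up to 0.000308% and 0.000533%.

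The markers of activation separated the arms completely. Il1b, the interleukin-1 beta precursor, had scaled H/L values after LPS of 1.71 and 1.58 at 4 h, 2.24 and 2.16 at 5 h and 2.51 and 2.51 at 6 h. In mock the values were 0.182 and 0.0812, 0.0923 and 0.0877, and 0.0713 and 0.092. Thus the lowest LPS run stood far above the highest mock run, and log2 H/L was 4.44 ± 0.26 (SE) higher, a 21.7-fold difference (limma, adjusted p = 1.26e-11). Il1a, its sister cytokine, reached 1.3 and 1.33 at 4 h, 2.02 and 1.42 at 5 h and 3.09 and 1.51 at 6 h, against 0.0633 to 0.271 in mock (log2 difference 3.58 ± 0.30, adjusted p = 8.16e-09). Replicates of Il1a lay further apart at 6 h than at 4 h. Irg1, the mitochondrial enzyme that makes itaconate, was measured with the most peptide pairs of the 3, 1362 over the 12 runs. Its H/L was 0.283 and 0.309 at 4 h, 0.422 and 0.437 at 5 h and 0.55 and 0.555 at 6 h after LPS, and 0.0403 to 0.0717 in mock (log2 difference 2.87 ± 0.16, 7.31-fold, adjusted p = 6.28e-12). At 0 h, before heavy label, Irg1 averaged 0.0488 ± 0.014 (SD, n = 2), so its mock values lie at the floor.

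**Figure D1:**
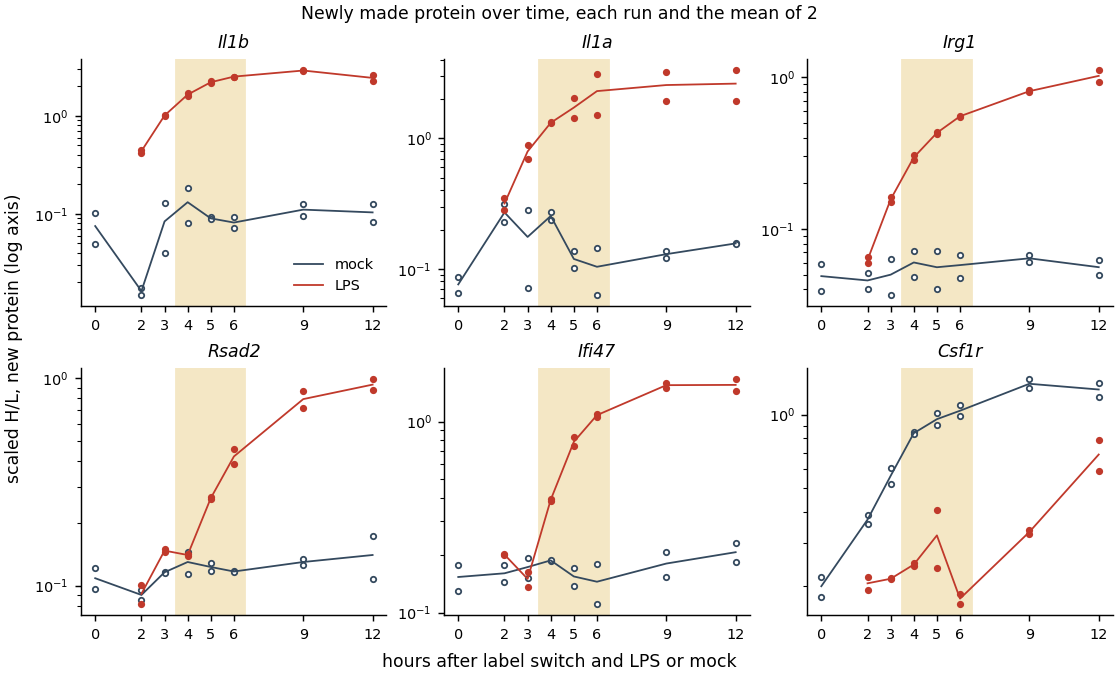
Scaled H/L (log axis) against hours for Il1b, Il1a, Irg1, Rsad2, Ifi47 and Csf1r; each point is a run, filled red for LPS and open grey for mock, lines join the means of 2 runs and the shaded band marks 4 to 6 h. At 4 to 6 h every LPS run of Il1b, Il1a and Irg1 lies above every mock run, Rsad2 leaves the mock level after 4 h, and Csf1r after LPS stays below the mock line.

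Over 4 to 6 h, 140 of 3369 tested proteins had more new protein after LPS (4.16%) and 7 had less (0.208%), at an adjusted p under 0.05 in limma. Of those higher, 77 differed at least 2-fold. The median change over all tested proteins was 0.03 on the log2 scale. For 97 proteins (2.88%) every LPS run lay above every mock run, and for 10 (0.297%) every LPS run lay below; in pre-existing protein these were 21 (0.597%) and 83 (2.36%). In pre-existing protein 56 of 3520 were lower (1.59%) and 18 higher (0.511%). Fitted as pairs of the same time and replicate number, new protein had 167 higher and 16 lower, total protein 123 and 78, H/M 197 and 14, and pre-existing protein 24 and 100, against 74 calls in all without the pairing; leaving out replicate 1 of LPS at 4 h gave 45 calls and replicate 2 of LPS at 5 h 49. Total protein was higher for 96 of 3369 (2.85%) and lower for 45 (1.34%). H/M, which needs neither the run factor nor the light reference, was higher for 156 (4.63%) and lower for 5 (0.148%). With the deposited normalised ratios the split of new protein was 42 higher and 191 lower (median change over all proteins -0.44), that of pre-existing protein 195 and 84 (median 0.04), of total protein 75 and 537 (-0.29) and of H/M 41 and 315 (-0.49). Total protein without any run factor gave 17 and 2. Directions below are therefore relative to the middle of the proteome in these runs.

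Members and lists were chosen with earlier results of these data known, so the list counts from here on describe and do not test. Of 49 tested members of 5 inflammatory lists 26 rose and none fell, against 4.16% of all proteins higher. The median change was 0.73, against 0.03 over all proteins. The same share of all proteins stands beside every count of list members that rose over 4 to 6 h. The count was 13 with the deposited normalised ratios and 17 without the run factor, and 3 or 10 when 1 replicate number was left out. Beside the interleukins, the cytokine list held Ccl5, a chemokine for T cells, at 0.178 to 0.573 after LPS and 0.0654 to 0.144 in mock (log2 difference 1.90 ± 0.40, adjusted p = 0.0032). Il1rn, the natural antagonist of the interleukin-1 receptor, ranged from 0.119 to 0.216 against 0.0416 to 0.149 and so overlapped (0.81 ± 0.20, adjusted p = 0.0162); its call was lost when any of 5 single runs was left out (log2 0.61 to 0.77). That name is carried by 2 protein groups of the table, of which the measured one rests on 1 unique peptide. Only the chemokine Ccl6 of the 5 tested in this list did not pass (-0.28 ± 0.28).

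NF-kB subunits were themselves made. In the list of NF-kB proteins and targets 7 of 14 rose and none fell (median 0.87), against 4.16% of all proteins higher. Icam1, the adhesion molecule that holds T cells, had a median H/L of 0.66 (0.538 to 0.893) after LPS and 0.168 (0.105 to 0.188) in mock, a log2 difference of 2.11 ± 0.19 (adjusted p = 3e-08). Tnfaip2, a protein induced by tumour necrosis factor, stood at 1.28 (1.14 to 1.36) against 0.302 (0.234 to 0.4), without overlap (2.07 ± 0.17, adjusted p = 9.04e-09). Rel, the c-Rel subunit, was at 0.406 (0.303 to 0.457) against 0.123 (0.104 to 0.167) (1.63 ± 0.17, adjusted p = 2.78e-07). Relb (1.26 ± 0.20) and Nfkb2 (0.73 ± 0.15), partners in the alternative NF-kB pathway, also rose. So did Rhbdf2, described with the pre-existing proteins, and Nlrp3, an inflammasome sensor (1.48 ± 0.35), which overlapped between the arms and was higher in 4 of 6 pairs. Nfkb1 (0.67 ± 0.21, adjusted p = 0.0681) and Rela (0.44 ± 0.28, adjusted p = 0.733) did not pass. Both tested factors of the AP-1 and immediate early list rose: Junb by 1.49 ± 0.18 and Cebpb, which drives acute-phase genes, by 1.21 ± 0.19.

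Enzymes and maturation proteins followed the same direction. Ptgs2, the cyclooxygenase of inflammation, was at 0.858 (0.501 to 1.12) after LPS and 0.202 (0.037 to 0.31) in mock (log2 difference 2.31 ± 0.36, adjusted p = 0.000121). Sqstm1, the autophagy receptor p62, rose by 1.80 ± 0.09 with 6 runs at 0.528 to 0.767 against 0.15 to 0.213 (adjusted p = 9.37e-13). In that list of itaconate, nitric oxide and stress enzymes 8 of 21 rose and none fell (median 0.25), against 4.16% of all proteins higher. Among them were the antioxidant enzymes Srxn1 (0.84 ± 0.19) and Txnrd1 (0.77 ± 0.12). Nos2, the inducible nitric oxide synthase, did not pass (0.66 ± 0.23, adjusted p = 0.134), nor did the arginine enzyme Arg1 (0.00 ± 0.13). Of 7 dendritic cell maturation proteins 5 rose (median 1.61), and 3 did without mock replicate 1 at 4 h. They were Marcksl1, an actin regulator (0.331 to 0.575 against 0.061 to 0.111, log2 difference 2.26 ± 0.18), the co-stimulatory receptor Cd40, the C-type lectin Clec4d (1.64 ± 0.15), Plek (1.61 ± 0.20) and the adhesion receptor Cd44 (1.14 ± 0.22). Cd40 was measured with few pairs, its arms overlapped (0.194 to 0.699 against 0.0375 to 0.212, 1.95 ± 0.50, adjusted p = 0.018), and its call was lost when any of 5 single runs was left out (log2 1.57 to 1.93). Fscn1, the actin-bundling protein of mature dendritic cells, did not pass (0.72 ± 0.26, adjusted p = 0.163).

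The LPS receptor pathway moved in 3 of 9 tested members, all upward, against 4.16% of all proteins higher. Cd14, the co-receptor that hands LPS to Toll-like receptor 4, was at 0.609 (0.494 to 0.75) against 0.174 (0.135 to 0.196), a log2 difference of 1.84 ± 0.19 (adjusted p = 1.89e-07). The adaptor Myd88 rose by 1.54 ± 0.21 and Tlr2, the receptor for bacterial lipoproteins, by 1.11 ± 0.26, higher in 5 of 6 pairs. Among proteins outside all lists were Kpna3, an importin that carries cargo into the nucleus (2.29 ± 0.12, 0.162 to 0.318 against 0.0385 to 0.0631), and Serpinb2, an inhibitor of plasminogen activators (2.22 ± 0.22, 0.336 to 0.501 against 0.066 to 0.142). A protein group without a gene name in the table was at 3.19 ± 0.30 (adjusted p = 4.8e-08); it was picked out after its values were seen.

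**Figure D2:**
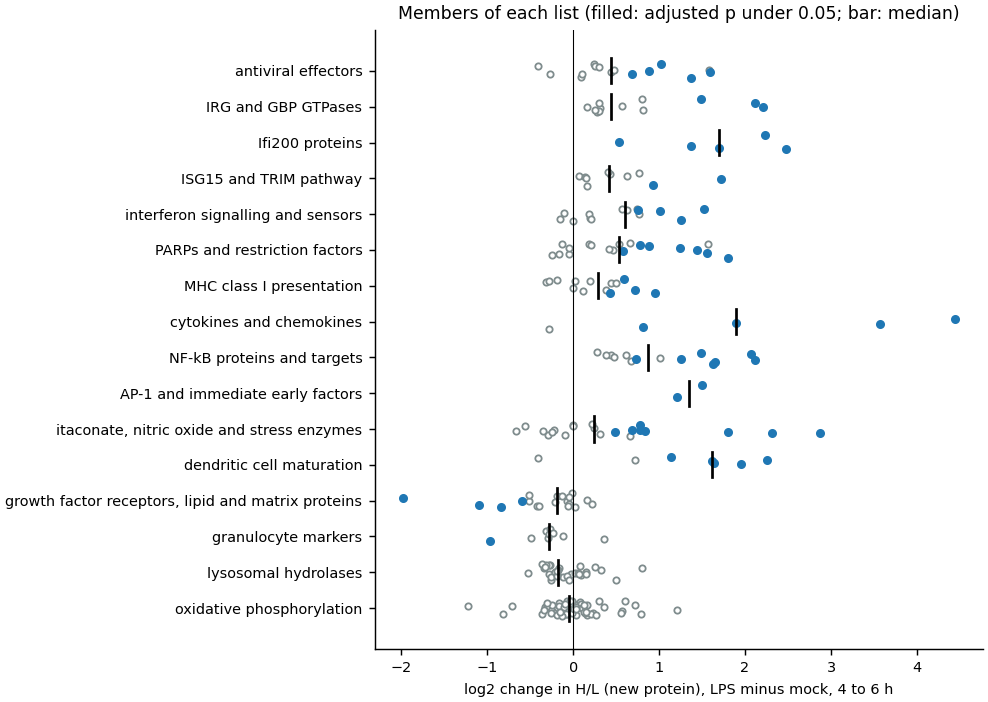
Log2 change in H/L (LPS minus mock, 4 to 6 h) for each tested member of 16 lists; filled points passed an adjusted p of 0.05, open points did not, and black bars are list medians. All filled points of the 12 upper lists lie right of 0, while filled points of the growth factor, lipid and matrix list and of the granulocyte list lie left of it.

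Interferon-responsive proteins formed the second group. Its lists were likewise chosen with earlier results known, so the contrast with all proteins is a description. Across 6 lists 26 of 75 tested members rose and none fell, against 4.16% of all proteins higher, and the median was 0.53 against 0.03 over all proteins. The count was 10 with the deposited normalised ratios, and 4 when either replicate number was left out. The Ifi200 proteins, DNA-binding proteins encoded in 1 cluster, rose in all 5 tested members, with a median of 1.69; without LPS replicate 2 at 5 h the count was 3, and without either replicate number 2. Mndal was at 0.3 (0.169 to 0.545, 5 runs) after LPS and 0.0653 (0.03 to 0.0874) in mock (2.48 ± 0.29, adjusted p = 5.95e-06). AI607873 (Ifi207) ran from 0.881 to 1.38 against 0.182 to 0.447 (2.23 ± 0.19, adjusted p = 1.29e-08). Ifi205a rose by 1.69 ± 0.15, Ifi204 by 1.38 ± 0.16, a name carried by 2 groups, and Pyhin1 by 0.53 ± 0.15 with overlapping arms. These proteins are close paralogues, so peptides they share can be assigned to any of them.

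Among the immunity-related and guanylate-binding GTPases, which attack vacuoles of intracellular microbes, 3 of 12 rose (median 0.44). Irgm1, a regulator of this family, was at 0.225 and 0.24 at 4 h, 0.321 and 0.388 at 5 h and 0.427 and 0.524 at 6 h after LPS, against 0.044 to 0.125 in mock (log2 difference 2.21 ± 0.26, adjusted p = 1.6e-06). Ifi47 climbed from 0.384 and 0.395 to 0.74 and 0.826 and then 1.06 and 1.1, against 0.111 to 0.189 (2.11 ± 0.16, adjusted p = 8.12e-10). Every run of both lay above every mock run. Gbp5, which promotes inflammasome assembly, rose by 1.49 ± 0.16. Other members had wide errors, such as Iigp1 (0.30 ± 1.03) and Igtp (0.31 ± 0.53), while Gbp2 (0.25 ± 0.18) and Gvin1 (0.57 ± 0.17, adjusted p = 0.0526) did not pass.

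Antiviral effectors were higher in 5 of 15 (median 0.44). Oasl1, a relative of the oligoadenylate synthetases that limits Irf7 translation, was at 0.392 (0.218 to 0.558) against 0.132 (0.0579 to 0.175), without overlap (1.59 ± 0.28, adjusted p = 0.000415). Ifitm3, which blocks virus entry at endosomes, rose by 1.37 ± 0.25, and Zc3hav1, which binds viral RNA, by 0.69 ± 0.18. Rsad2 (viperin, which makes a chain-terminating nucleotide) rose by 1.02 ± 0.12 (adjusted p = 1.76e-06), and Ifit1, a sensor of uncapped RNA, by 0.88 ± 0.16 (adjusted p = 0.000796); their arms overlapped, and 5 of 6 pairs were higher in each. By contrast, Ifit2 (0.24 ± 0.14), Ifit3 (0.09 ± 0.25) and Isg15 (0.07 ± 0.40), which are classical interferon targets, did not pass at these times. Isg15 values were 0.182 to 0.333 after LPS and 0.135 to 0.392 in mock.

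Sensors and restriction factors rose in part. In the signalling and sensor list 4 of 14 rose (median 0.60; 2 without mock replicate 2 at 5 h): Xaf1 (1.53 ± 0.27), Ifi35 (1.26 ± 0.30), and the RNA helicases Ddx58 (RIG-I, 1.01 ± 0.21) and Ifih1 (MDA5, 0.76 ± 0.21). Ifih1 lost its call when fitted as pairs (adjusted p = 0.0624) and when any of 9 single runs was left out (log2 0.58 to 0.80). Ifi35 lost its call without mock replicate 2 at 4 h or at 5 h (0.89 to 1.12), and from summed intensities its change was -0.49. Stat2, a transducer of the interferon signal, did not pass (0.74 ± 0.27, adjusted p = 0.18). In the list of PARPs and restriction factors 7 of 19 rose (median 0.53), led by Slfn2, a regulator of immune cell quiescence, at 1.45 (1.25 to 1.58) against 0.325 (0.226 to 0.67) (1.80 ± 0.28, adjusted p = 0.000161). Sp110 (1.56 ± 0.28), the mono-ADP-ribosyl transferase Parp14 (1.44 ± 0.22) and Slfn5 (1.24 ± 0.25) followed. Of the ISG15 and TRIM pathway 2 of 10 rose (median 0.42; 4 without mock replicate 1 at 5 h, and 1 without mock replicate 2 at 4 h or at 5 h), Trim30a by 1.72 ± 0.35 and the ubiquitin ligase Dtx3l by 0.93 ± 0.22, which lost its call without mock replicate 2 at 4 h or at 5 h (0.72 and 0.73).

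Antigen presentation was kept apart from the interferon total. Of 14 class I pathway proteins 4 rose (median 0.29), against 4.16% of all proteins higher. They were the heavy chain H2-K1 (0.95 ± 0.19), the immunoproteasome subunit Psmb10 (0.72 ± 0.15), the light chain B2m (0.595 ± 0.10) and the proteasome activator Psme2 (0.42 ± 0.11). H2-K1 was measured without a unique peptide, so other class I chains may contribute to it. B2m stood at 0.327 (0.263 to 0.417) against 0.232 (0.183 to 0.246), without overlap. Psme2 lost its call when fitted as pairs (adjusted p = 0.0555) and without any of 4 single runs (0.35 to 0.40), and under the deposited normalised ratios its change was -0.02. The peptide transporters Tap1 (0.02 ± 0.49) and Tap2 (-0.19 ± 0.50) did not pass. Cd74, the invariant chain of class II, was the only one of 7 class II proteins to pass (0.51 ± 0.11, 0.938 to 1.19 against 0.646 to 0.793); under the normalised ratios it was at -0.14.

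Within the window most first calls of the interferon group fell at 6 h. Members called higher numbered 0 of 68 at 2 h, 1 of 69 at 3 h, 4 of 70 at 4 h, 8 of 70 at 5 h and 21 of 73 at 6 h, and then 45 of 75 at 9 h and 42 of 69 at 12 h. For all proteins the share called higher was 0.0645%, 0.588%, 0.929%, 1.38%, 2.8%, 5.59% and 7.23% at these times. Inflammatory members called higher were 2 of 48 at 2 h, 9 of 44 at 3 h, 10 of 45 at 4 h, 12 of 46 at 5 h and 25 of 49 at 6 h, then 29 of 46 and 32 of 48. Medians of the members measured at all 7 times were, for 63 interferon proteins 0.05, -0.01, 0.40, 0.59, 1.04, 1.69 and 2.04, and for 39 inflammatory proteins 0.02, 0.22, 0.43, 0.74, 1.25, 1.38 and 1.59. The first call of the 26 interferon proteins that rose over the window fell at 3 h for 1, 4 h for 3, 5 h for 5, 6 h for 11 and 9 h for 6. For the 26 inflammatory proteins it was 2 h for 2, 3 h for 7, 4 h for 3, 5 h for 2, 6 h for 10 and 9 h for 1, with 1, Rhbdf2, called at no single time. Whether the 2 groups differ in onset was not tested, and a single time has 2 runs an arm.

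**Figure D3:**
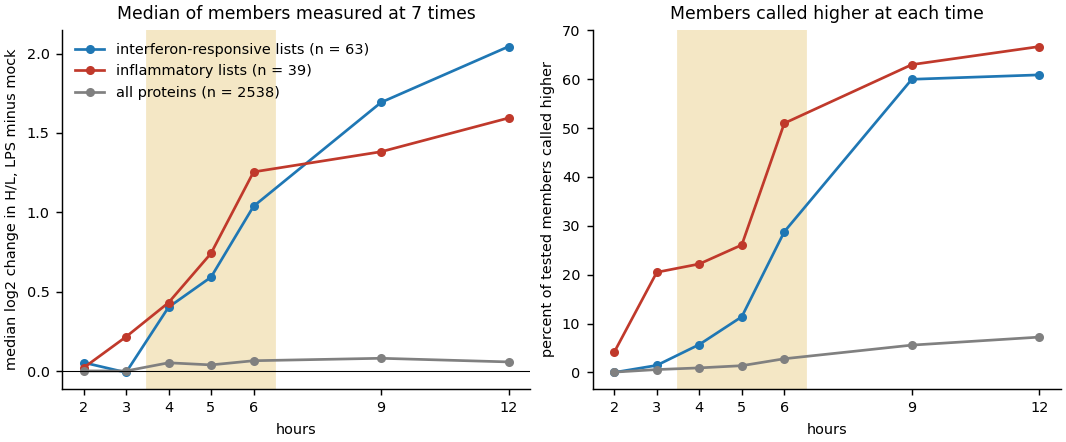
Left, median log2 change in H/L (LPS minus mock) by hour for 63 interferon, 39 inflammatory and 2538 proteins in all that were measured at 7 times; right, percent of tested members called higher at each hour, with 4 to 6 h shaded. In the left panel the interferon line is near 0 at 2 and 3 h, reaches 1.04 at 6 h and ends above the inflammatory line at 9 and 12 h. In the right panel it lies below the inflammatory line at every hour, with 60.0% against 63.0% at 9 h and 60.9% against 66.7% at 12 h.

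Within the window a single protein passed the test that its LPS effect differed between 6 h and 4 h, Rsad2 (1 of 2907, 0.0344%; 93 had an unadjusted p under 0.05). Its H/L after LPS was 0.142 and 0.139 at 4 h, 0.262 and 0.266 at 5 h and 0.385 and 0.453 at 6 h. In mock it stayed at 0.146 and 0.114, 0.118 and 0.128, and 0.118 and 0.116. So at 4 h the arms overlapped and at 6 h they were apart, and the effect at 6 h exceeded that at 4 h by 1.72 ± 0.29 (adjusted p = 0.0157). That call was lost when fitted as pairs (adjusted p = 0.0713) and without any of 5 single runs, namely both LPS runs and mock replicate 1 at 4 h, LPS replicate 2 and mock replicate 2 at 6 h (1.54 to 1.73). The count was 2 without mock replicate 2 at 4 h and 3 without mock replicate 1 at 6 h.

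Against 2 and 3 h, the LPS effect over 4 to 6 h was larger for 22 of 3166 proteins (0.695%) and more negative for 1 (0.0316%). Fitted as pairs it was 36 and 1. The interferon GTPases led: Irgm1 differed by 2.71 ± 0.41 (adjusted p = 0.000495) and Ifi47 by 2.05 ± 0.25 (adjusted p = 2.81e-05). The Irgm1 difference exceeds its change over the window (2.21), so its estimated effect at 2 and 3 h was negative. At 3 h Ifi47 averaged 0.15 ± 0.0195 (SD, n = 2) after LPS and 0.173 ± 0.0298 in mock, and at 4 h 0.389 ± 0.00782 and 0.188 ± 0.00246. Ifi205a (1.90 ± 0.23) and Oasl1 (1.86 ± 0.44, adjusted p = 0.0432) also belong to the interferon lists; Oasl1 lost its call when fitted as pairs (adjusted p = 0.0584) and without any of 11 single runs (1.66 to 1.92). Il1a (2.22 ± 0.47) and Icam1 (2.04 ± 0.30) of the inflammatory lists were larger as well. Csf1r was the 1 that was more negative, by -0.85 ± 0.20 (adjusted p = 0.0493), and lost its call as pairs (adjusted p = 0.105) and without any of 10 single runs (-0.88 to -0.72).

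Against 9 and 12 h, the comparison after the window, the LPS effect was larger later for 54 of 3113 proteins (1.73%) and more negative for 7 (0.225%). Proteins of the interferon wave that had not passed over 4 to 6 h were among those that grew: Ifit3 by 2.14 ± 0.39 (adjusted p = 0.00298), the RNA helicase Dhx58 by 3.11 ± 0.79 and the nucleic acid sensor Zbp1 by 2.48 ± 0.60. Ifit3 over the window was at 0.126 (0.0709 to 0.159) after LPS and 0.101 (0.0762 to 0.157) in mock, so the arms overlapped fully. Ccl5 grew by 2.67 ± 0.63, Gm4902 (Phf11b) by 3.19 ± 0.75 and Saa3, an acute-phase apolipoprotein, by 2.79 ± 0.71. Over the window Gm4902 and Saa3 were lower after LPS in 4 of 6 pairs, with overlapping arms. Their medians there were 0.166 against 0.317 and 0.109 against 0.135 in mock, so part of each difference comes from values below mock in the window. Single runs decided several of these calls: Dhx58 lost its call without any of 10 runs (2.86 to 3.20), Saa3 without any of 9 (2.52 to 2.83), Zbp1 without mock replicate 1 at 5 h or replicate 1 of either arm at 6 h (2.23 to 2.34) and Ccl5 without mock replicate 1 at 6 h (2.53), while Gm4902 lost its call as pairs (adjusted p = 0.0547). More negative later were Bcap31 (-2.07 ± 0.46), a membrane protein of the endoplasmic reticulum, the elastase Mmp12 (-1.21 ± 0.22), Apoe (-0.84 ± 0.19) and the lysosomal thioesterase Ppt1 (-0.75 ± 0.18, lost without any of 5 runs, -0.74 to -0.68). This comparison and the one against 2 and 3 h share the 12 runs of the window. Only those 12 runs were left out singly. For both comparisons the runs of 2, 3, 9 and 12 h were not checked in this way, so a call kept there can still rest on 1 of them.

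New protein was lower for 7 proteins over 4 to 6 h, for 16 when fitted as pairs and for 11 without mock replicate 2 at 6 h. Csf1r, through which M-CSF supports macrophages, was at 0.248 and 0.241 at 4 h, 0.407 and 0.236 at 5 h and 0.169 and 0.186 at 6 h after LPS. In mock it was at 0.845 and 0.834, 0.905 and 1.01, and 0.983 and 1.09. Every LPS run was below every mock run, a log2 difference of -1.98 ± 0.13, or 3.95-fold (adjusted p = 8.7e-11). At 0 h Csf1r averaged 0.199 ± 0.0264 (SD, n = 2), close to the LPS values. Lpl, lipoprotein lipase, was at 0.33 (0.267 to 0.439) against 0.667 (0.548 to 0.951) (-1.09 ± 0.11, adjusted p = 1.74e-07), and Pla2g7, which degrades platelet-activating factor, at 0.275 (0.238 to 0.299) against 0.46 (0.404 to 0.546) (-0.80 ± 0.09). Apoe, the lipid carrier, fell by 0.60 on the log2 scale (0.481 to 0.624 against 0.725 to 1.05). Ngp, a granule protein of neutrophil precursors, was at -0.97 ± 0.24 (0.238 to 0.387 against 0.501 to 0.577) and lost its call without LPS replicate 1 at 4 h (-0.86). Tnfaip8l2, a brake on Toll-like receptor signalling, was at -0.84 ± 0.21 with overlapping arms, and Nup85, a nuclear pore subunit, at -1.99 ± 0.50 with overlapping arms; each lost its call without any of 4 single runs (-0.79 to -0.67 and -1.79 to -1.67).

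By list, 4 of 19 growth factor receptor, lipid and matrix proteins fell in new protein (Csf1r, Lpl, Tnfaip8l2 and Apoe, median -0.19) and 1 of 9 granulocyte markers (Ngp, median -0.28), against 0.208% of all proteins. Tnfaip8l2, described above as a brake on Toll-like receptor signalling, is counted in the first list. Members were chosen with earlier results of these data known, so these shares describe and do not test. None of 32 lysosomal hydrolases passed (median -0.17; 356 of 3369 proteins in all had an unadjusted p under 0.05), nor any of 58 oxidative phosphorylation proteins (median -0.05). In the cytosolic ribosome list 7 of 72 rose (median 0.23), against 4.16% of all proteins, among them Rps29 (1.19 ± 0.11, 0.0387 to 0.0706 against 0.0161 to 0.0297), Rpl14 (0.80 ± 0.19) and Rpl29 (0.77 ± 0.20). These H/L values are low, and the count was 1 without the run factor, 2 with each channel centred on its median and 0 from summed intensities, and leaving out any of 9 single runs gave 2 to 4. Rpl14 lost its call without LPS replicate 2 at 5 h (0.68) and Rpl29 without any of 6 runs (0.63 to 0.72).

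The lowest change in pre-existing protein among those called was that of Rhbdf2. Rhbdf2 (iRhom2), the carrier that brings the sheddase ADAM17 to the cell surface, had M/L values after LPS of 0.291 and 0.264 at 4 h, 0.305 and 0.212 at 5 h and 0.245 and 0.182 at 6 h. Mock runs gave 0.911 and 0.704, 0.627 and 0.704, and 0.715 and 0.697. The arms did not overlap, and log2 M/L differed by -1.55 ± 0.09 (adjusted p = 8.87e-11). Its new protein went the opposite way, from 0.0848 to 0.165 in mock to 0.239 to 0.511 after LPS (1.65 ± 0.39, adjusted p = 0.0112), and its total was -0.44 (adjusted p = 0.00568). Adam17 itself, which releases tumour necrosis factor from the membrane, was at 0.212 (0.184 to 0.287) in M/L after LPS and 0.513 (0.29 to 0.574) in mock (-1.12 ± 0.16, adjusted p = 0.000129), with new protein that did not pass (0.34 ± 0.64). At 2 h Rhbdf2 was already at 0.418 ± 0.0109 against 0.836 ± 0.0754 (SD, n = 2). Plaur, the urokinase receptor, was the other protein called higher in H/L (0.79 ± 0.09) and lower in M/L (-0.30 ± 0.07), with no call in total (-0.02).

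**Figure D4:**
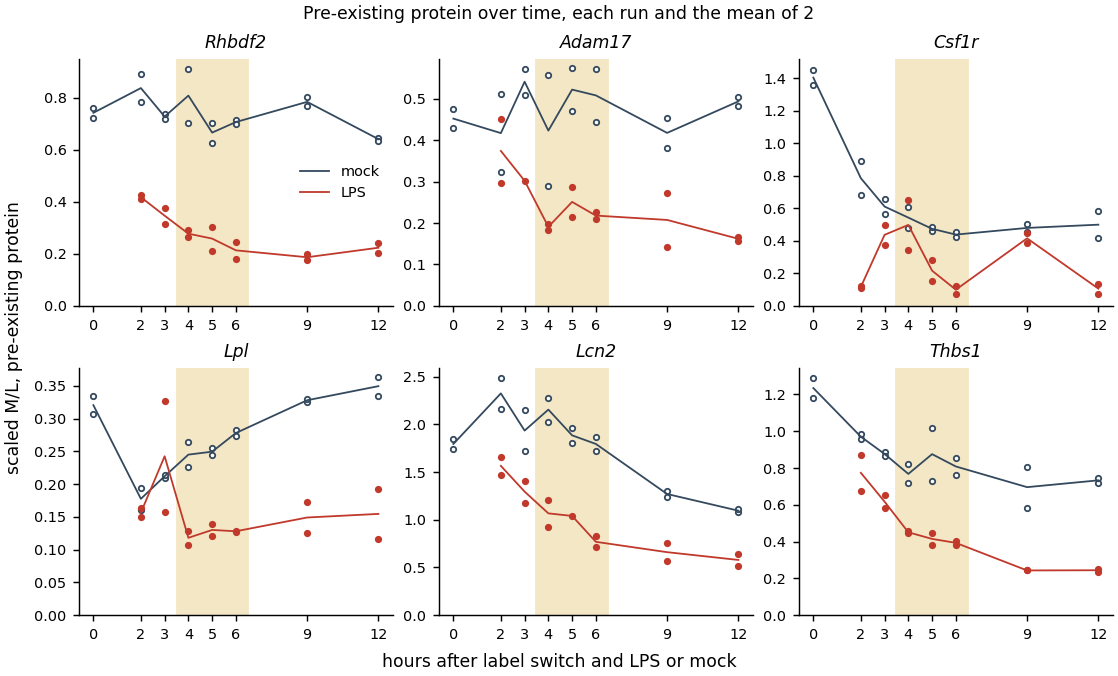
Scaled M/L against hours for Rhbdf2, Adam17, Csf1r, Lpl, Lcn2 and Thbs1; points are runs, filled red for LPS and open grey for mock, lines join means of the available runs and the band marks 4 to 6 h. Rhbdf2 is lower after LPS from 2 h on, Adam17 separates inside the band, and Csf1r overlaps mock at 4 h.

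Csf1r (-1.19 ± 0.19) and Lpl (-1.04 ± 0.15) fell in M/L as well as in H/L. For Csf1r 5 of 6 pairs were lower, since the runs at 4 h overlapped (0.651 and 0.346 against 0.609 and 0.478). Called lower in both channels were 4 proteins, these 2 with Ngp and Pla2g7. Secreted and granule proteins without a call in H/L were among the rest: Lcn2, an iron-siderophore binder (0.711 to 1.21 against 1.72 to 2.28, -1.04 ± 0.15), Ltf (lactoferrin, -0.84), the matrix protein Thbs1 (-0.96 ± 0.09, 1 unique peptide), complement C3 (-0.93), Mmp12 (-0.91) and properdin (Cfp, -0.67). C3, Cfp and Axl are outside the naming rule and were picked out after their values were seen. Plin2, the coat of lipid droplets (-0.98 ± 0.14), and the receptor Axl (-0.73) were lower too. By list, 10 of 32 lysosomal hydrolases fell in M/L at low amplitude (median -0.16), as did 6 of 10 granulocyte markers (median -0.30), 3 of 5 macrophage markers, and 7 of 19 growth factor, lipid and matrix proteins (median -0.20), against 1.59% of all. In total protein 5 of 9 granulocyte markers and 3 of 4 macrophage markers were lower, against 1.34% of all proteins. The summed granulocyte and macrophage shares given above overlapped between the arms. In whole-culture lysates fewer cells of a type and less protein per cell cannot be told apart. The part of cell composition in these falls was not tested.

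Pre-existing protein was higher for 18 proteins, and 6 of these were called higher in H/L too. The count was 1 without the run factor and 0 without either replicate number, and leaving out any of 8 single runs gave 5 to 11, with 5 without mock replicate 2 at 6 h, 6 without LPS replicate 2 at 5 h and 7 without LPS replicate 1 at 4 h. Il1b was at 0.256 (0.232 to 0.272) after LPS and 0.0863 (0.0519 to 0.124) in mock, 1.58 ± 0.29 on the log2 scale (adjusted p = 0.00192). Its M/L after LPS averaged 0.122 ± 0.00505 at 2 h, 0.212 ± 0.00241 at 3 h and 0.261 ± 0.0166 at 6 h (SD, n = 2), while no medium label was supplied after 0 h by the design; the source of this signal was not tested. Sqstm1 (0.58 ± 0.09), Irg1 (0.355 ± 0.06), AI607873 (0.37 ± 0.08), Serpinb2 (0.16 ± 0.04) and Ccdc86 (0.47 ± 0.12) were the other 5. Ccdc86 lost its call as pairs (adjusted p = 0.0567) and without any of 10 runs (0.40 to 0.49). Among those without a call in H/L were Hmgcs1, an enzyme of cholesterol synthesis (0.41 ± 0.08), the endosomal regulator Tbc1d5 (0.57 ± 0.13) and the ribosomal protein Rps6 (0.37 ± 0.09); Tbc1d5 lost its call without any of 6 runs (0.42 to 0.57) and Rps6 without any of 7 (0.33 to 0.38).

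**Figure D5:**
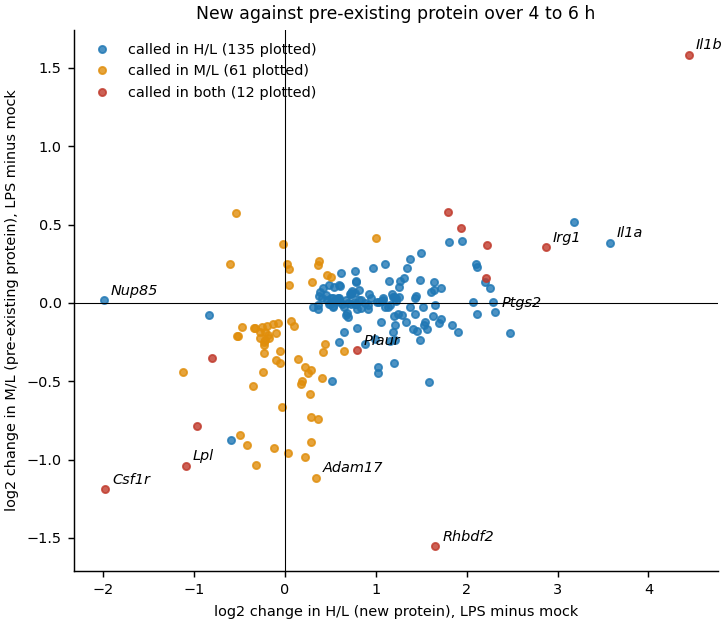
Log2 change in M/L against log2 change in H/L (LPS minus mock, 4 to 6 h) for proteins called in either channel and measured in both. Il1b is alone at the upper right, Csf1r and Lpl lie at the lower left, and Rhbdf2 is at the lower right, higher in new and lower in pre-existing protein.

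The highest and lowest total levels belonged to proteins already described. Il1b (3.67 ± 0.22), Il1a (2.48 ± 0.20), Irg1 (1.71 ± 0.08), Slfn2 (1.64 ± 0.25), Ptgs2 (1.51 ± 0.26) and Cd40 (1.45 ± 0.28) led. Total Il1b was at 2.45 (1.81 to 2.78) after LPS and 0.183 (0.141 to 0.277) in mock, 12.7-fold. At the other end stood Csf1r (-1.59 ± 0.11, 3.00-fold lower), Lpl (-1.08 ± 0.11), Lcn2 (-0.855 ± 0.11), Ngp (-0.83 ± 0.05), Ltf (-0.78 ± 0.07) and Apoe (-0.61 ± 0.12), of which Apoe overlapped between the arms. Total Csf1r ran from 0.243 to 0.899 after LPS and from 1.31 to 1.54 in mock.

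Some proteins had H/L in only 1 arm and so gave no test. With H/L in at least 5 of 6 LPS runs and at most 1 of 6 mock runs there were 16, and in the reverse sense 6. Ptx3, a secreted pattern recognition molecule, had H/L of 2.15 to 2.83 in 6 LPS runs and 0 mock runs. Cxcl2, a neutrophil chemokine, was at 3.17 to 4.46 in 6 and 0, and Maff, a small Maf transcription factor, at 1.35 to 3.27 in 6 and 0. Il12b, the p40 chain of interleukin-12, was at 1.34 to 2.09 in 6 LPS runs and had 1 mock value, as had the cytokine Tnfsf15. The NF-kB inhibitor Tnfaip3 (A20) was at 1.66 to 2.29 in 5 and 0. Irf7, the interferon regulatory factor that amplifies the response, was at 1.12 to 2.24 in 5 LPS runs and 0 mock runs, and Ifi203 of the Ifi200 family at 0.279 to 0.985 in 5 and 1. In the mock arm Mmp9, a gelatinase, was at 0.545 to 1.0 in 6 runs and had 1 LPS value. Missing values in this table need not mean that a protein was not there.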

How the data were processed

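The deposited trypsin table, built with mouse build mm9 per the submitters' processing notes, holds un-normalised SILAC ratios M/L, H/L and H/M per protein group and run, peptide pair counts and summed intensities, per the file headers, which give no version of the search software. Of 6266 groups, those marked as reverse, contaminant or identified only by site were dropped, leaving 5899. To even out loading, each run was scaled by a factor, its median summed ratio (M/L and H/L together) across the 2628 proteins quantified in M/L throughout, and log2 values were fitted with limma 3.58.1 in R 4.3.3 on 21 group means over 42 runs. Proteins needed 4 of 6 values in each arm and 1 at each time, and p-values were Benjamini-Hochberg adjusted over all proteins tested, with calls under 0.05. Deviations of same-numbered LPS and mock runs from their group means correlated at 0.25 to 0.46 in H/L and 0.31 to 0.55 in M/L at the 7 times from 2 to 12 h. Runs of different times were not compared, so pairs cannot be told from a difference between replicates 1 and 2 throughout the series. The run factor at 4 to 6 h was 0.71 to 0.76 in replicate 1 and 1.01 to 1.06 in replicate 2. The main fit did not use the replicate numbers. On simulated ratios for 3369 proteins of the H/L comparison over 4 to 6 h, the fit recovered 53% of 100 proteins changed by 1 log2 unit and 88% of 100 changed by 2, and 6.62% of its calls were unchanged proteins. The simulation drew each run independently, without deviations shared by same-numbered runs, and had as many rises as falls. Its rates therefore need not hold for the measured runs.

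Named proteins were the activation markers, the called proteins with the highest and lowest estimates and the same sign in every pair, up to 4 called members of each list, the highest and lowest differences between times and the proteins of 1 arm with most peptide pairs. Members and lists were chosen with earlier results of these data known. Zc3hav1, Relb, Nfkb2, Nlrp3, Txnrd1, Cd44, Pyhin1 and Plaur lie outside that rule and were picked after their values were seen. Alternatives were no run factor, channels centred separately, the deposited normalised ratios, summed intensities, subtraction of the 0 h heavy signal, a minimum of 3 peptide pairs, the runs of the comparison alone, a replicate block and leaving out runs. AspN and LysN digests were not used. A few proteins are not reported here.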

Additional observations from a re-analysis of the deposited data

Results flagged for a closer look

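These differences between times in the LPS effect on new protein passed limma's test of the difference (log2 scale). For 6 h minus 4 h it was Rsad2 (1.72). For 4 to 6 h minus 2 and 3 h they were Irgm1 (2.71), Il1a (2.22), Ifi47 (2.05), Icam1 (2.04), Ifi205a (1.90), Oasl1 (1.86) and Csf1r (-0.85). For 9 and 12 h minus 4 to 6 h they were Gm4902 (3.19), Dhx58 (3.11), Saa3 (2.79), Ccl5 (2.67), Zbp1 (2.48), Ifit3 (2.14), Bcap31 (-2.07), Mmp12 (-1.21), Apoe (-0.84) and Ppt1 (-0.75).

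Heavy signal was present at 0 h, before heavy amino acids were supplied, with a median H share of 13.7% ± 0.759 (SD, n = 2 runs). Of 31 sets of 6 values tested with Dixon's test, none had a run or pair far from the others.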

How the results depend on the processing

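Counts of calls moved with the scaling and with the number of replicates. Fits without 1 replicate number had 1 run per group and few degrees of freedom, which by itself lowers the counts given for them. Without the run factor new protein had 73 calls, pre-existing 5, total 19, new protein at 4, 5 and 6 h 3, 9 and 44, and the differences 6 h minus 4 h, 4 to 6 h minus 2 and 3 h and 9 and 12 h minus 4 to 6 h 0, 0 and 28. With the deposited normalised ratios new, pre-existing and total protein and H/M had 233, 279, 612 and 356, the single times 9, 5 and 21, and the differences 0, 780 and 19 (11 higher and 769 lower in the second, where the median of all proteins was -0.89). From summed intensities pre-existing protein had 21 calls and the differences 0, 10 and 14. With the 0 h signal subtracted new protein had 81 calls of 1502 tested, and the differences 0, 5 and 0. The replicate block gave 124 for pre-existing protein and 0 and 37 for the first 2 differences; it took 7 calls of named proteins, all given above, and no other. With only the runs of the comparison pre-existing protein had 40 calls and 6 h minus 4 h 0, and with at least 3 peptide pairs the latter had 2. Counts without 1 replicate number were 13 to 25 for new, 6 to 7 for pre-existing and 22 to 32 for total protein, 6 to 19 for H/M, 0 to 1 at 4, 5 and 6 h and 0 for each difference; without 1 run they were 122 to 146 for new and 45 to 68 for pre-existing protein, and 0 to 3, 16 to 28 and 44 to 72 for the differences. The H share difference was 0.279 points over proteins in all 12 runs, 0.322 without replicate 1, 0.602 without replicate 2 and 1.24 from summed intensities (6 of 6 pairs, exact permutation p = 0.0312).

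Interferon members called higher were 10 under the normalised ratios and 10 of 33 with the 0 h signal subtracted, and 4 without either replicate number; inflammatory members were 17 without the run factor, 13 normalised, 15 of 32 subtracted, and 3 to 10. Ribosome members were 1, 2 (channels centred), 1 (normalised, 2 lower), 0 (intensities), 2 (subtracted) and 2 (runs of the comparison), and 0 without either replicate number. Of 2228 values for 102 named results under alternatives, 455 were no longer past the threshold and 3 had the opposite direction: Cd74 at -0.14 and Psme2 at -0.02 with normalised ratios, and Ifi35 at -0.49 from summed intensities. The cause of these changes was not tested. Losses were spread unevenly over the alternatives. From summed intensities 47 values lost the call and 42 kept it, and without the run factor 44 and 58. With normalised ratios it was 36 and 64, with the 0 h signal subtracted 16 and 31, and with channels centred 6 and 84. Single runs left out took 125 calls and kept 948. Most losses came from leaving out 1 replicate number, a fit with 1 run per group. The median was 8 or 9 pairs per protein. Small changes of weakly made proteins may have been missed, and the part of depth in this was not tested.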
